A study of Mus musculus with 12 samples.

Results

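The genes described here are Trem2, Tyrobp, Syk, Spp1, Igf1, Csf1, Lgals3, Cst7, Cd52 and Ank, which is 10 of the 39017 genes in the count table. They were taken by symbol as the Trem2 receptor with its signalling partners and genes of the disease-associated microglia signature, and all 10 had enough counts to be tested. Microglial RNA was sequenced from spinal cords of females of the strain C57BL/6 in experimental autoimmune encephalomyelitis (EAE), a model of multiple sclerosis in which immune cells attack myelin. All libraries came from Tmem119-Cre RiboTag mice, in which Cre made under the microglial gene Tmem119 switches on a tagged ribosomal protein that allows RNA on the ribosomes of these cells to be pulled out of whole tissue. The 6 cKO libraries (numbered 1 to 6) carry the genotype label Kdm6a cKO, a conditional loss of an X-linked histone demethylase, and the 6 WT libraries (7 to 12) that of wild type, and EAE is the disease label of all 12. The age, the day of disease and the Cre that removed Kdm6a are not given in the labels.

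TREM2 is a lipid-binding receptor of microglia and other macrophages with a very short tail of its own. It signals through the adaptor TYROBP (also called DAP12), whose tyrosine motif, once phosphorylated, recruits the kinase SYK. In mouse models of neurodegeneration, microglia around damaged tissue lose homeostatic genes and, in a step that needs Trem2, switch on a set that includes Cst7, Spp1, Igf1, Lgals3, Csf1 and Ank. Those cells are called disease-associated microglia.

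The tyrosine motif through which TREM2 reaches SYK is shown first, since it joins the receptor, adaptor and kinase described below. It covers residues 92 to 106 of the 114 encoded by the longest reading frame of Tyrobp (GENCODE M21 transcript, chromosome 7, plus strand), and capitals mark the codons of the tyrosines at residues 92 and 103.
Tyrobp: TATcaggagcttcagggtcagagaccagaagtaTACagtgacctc

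Upstream sequence is given for the members with a searched motif. Of the 10 members, 8 had a start in the RefSeq promoter table (GRCm38.p6), with 10 windows in all, each from 250 bases before the start to 10 bases after it; Tyrobp and Cd52 had none. The motifs searched on both strands were TGANTCA, a loose form of the AP-1 site, CACGTG and GAGGAAGT. CACGTG is the E-box bound by MiT/TFE factors, and GAGGAAGT is a form of the PU.1 site. The loose form allows any middle base, where the usual AP-1 site has C or G. The motifs do not overlap each other in the windows shown. The TGANTCA letters lay in 3 of the 10 windows, against 7.03% of all 32851 windows in the table. The PU.1 letters lay in 1, against 2.60%, and the E-box letters in 0, against 6.34%. The windows with a match are those of Trem2 (chr17:48346151-48346410, plus strand), Cst7 (chr2:150570165-150570424, plus), Igf1 (chr10:87860861-87861120, plus) and Spp1 (chr5:104434861-104435120, plus). Capitals mark the TGANTCA letters in the first 3 and the PU.1 letters in Spp1. The middle base of those 3 matches is A or T, so none has the usual AP-1 letters. A match describes the letters only, and the counts of windows were not tested against those shares.
Trem2: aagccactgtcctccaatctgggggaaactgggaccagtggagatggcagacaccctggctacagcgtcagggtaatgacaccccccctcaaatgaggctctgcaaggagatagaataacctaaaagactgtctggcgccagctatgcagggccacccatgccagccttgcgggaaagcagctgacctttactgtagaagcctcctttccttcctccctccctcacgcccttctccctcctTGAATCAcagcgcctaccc
Cst7: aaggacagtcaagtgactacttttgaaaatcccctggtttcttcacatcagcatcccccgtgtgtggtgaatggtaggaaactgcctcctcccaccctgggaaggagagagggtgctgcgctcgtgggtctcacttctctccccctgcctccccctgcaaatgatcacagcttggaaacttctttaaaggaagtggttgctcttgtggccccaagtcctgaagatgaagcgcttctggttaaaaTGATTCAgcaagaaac
Igf1: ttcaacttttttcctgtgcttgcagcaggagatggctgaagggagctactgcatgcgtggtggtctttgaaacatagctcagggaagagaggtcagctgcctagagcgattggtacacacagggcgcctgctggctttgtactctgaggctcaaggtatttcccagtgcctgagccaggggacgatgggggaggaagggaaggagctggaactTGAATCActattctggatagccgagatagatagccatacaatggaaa
Spp1: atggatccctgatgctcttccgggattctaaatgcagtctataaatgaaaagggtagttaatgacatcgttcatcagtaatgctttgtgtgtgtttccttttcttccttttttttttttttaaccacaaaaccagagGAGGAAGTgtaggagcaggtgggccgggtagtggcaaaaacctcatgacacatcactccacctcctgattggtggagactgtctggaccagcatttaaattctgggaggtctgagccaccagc

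Libraries held 19040115 to 26296071 counts, and a level is given in CPM, the usual unit of counts scaled to library size, with totals scaled by TMM (factors 0.912 to 1.23). Kdm6a itself, a check of the labels, stood at 1.59 to 4.50 CPM in cKO and 3.35 to 6.19 CPM in WT (log2 fold change -0.70 ± 0.25 SE, adjusted p = 0.117, edgeR), with cKO 2 (4.50 CPM) among the WT levels. These are counts over the whole gene, 36 to 130 per library, and the labels do not say which exons are removed, so they are a weak check. Microglial genes were read in every library, with Cx3cr1 at 696 to 2147 CPM and Tmem119 at 201 to 630 CPM. Of the border macrophage markers, Mrc1 was at most at 1.14 CPM, while Ms4a7 stood at 37.3 to 72.1 CPM in WT and 1.92 to 31.4 CPM in cKO. The summed level of the neuron markers was higher in cKO 1, 2, 3 and 4 than in any WT library. Whether each library is a separate animal is not stated in the labels, and p-values therefore describe the spread among libraries, which may be technical.

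None of the 10 members differed between cKO and WT in the edgeR quasi-likelihood test at a Benjamini-Hochberg adjusted p under 0.05 over all 15015 tested genes, of which 5.87% passed. At an unadjusted p under 0.05 it was 1 member (Igf1), against 23.8% of all genes. DESeq2, which called 12.3% of all genes, also called 0 of the 10 (2 at an unadjusted p under 0.05). In 9 of the 10 the log2 fold change was below 0, as it was in 45.4% of all genes, and the median of the 10 was -0.27, against 0.03 for all genes. The groups overlapped in each of the 10, and did not overlap in 4.13% of all genes. The members' levels varied widely among the cKO libraries. Levels in cKO 2 and cKO 4 lay below every WT library for 8 of the 10 members each, as did those in cKO 1, while cKO 6 lay above every WT library for 5 and cKO 3 for 3. Library cKO 5 was mixed, with 5 members below and 3 above every WT library. The share of all tested genes outside the WT range in each library is not given here. Since the SD of log2 CPM was higher in cKO than in WT for 81.1% of all tested genes, these counts only describe the members. In bulk libraries, fewer cells of a type or state and less RNA per cell cannot be told apart.

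**Figure D1:**
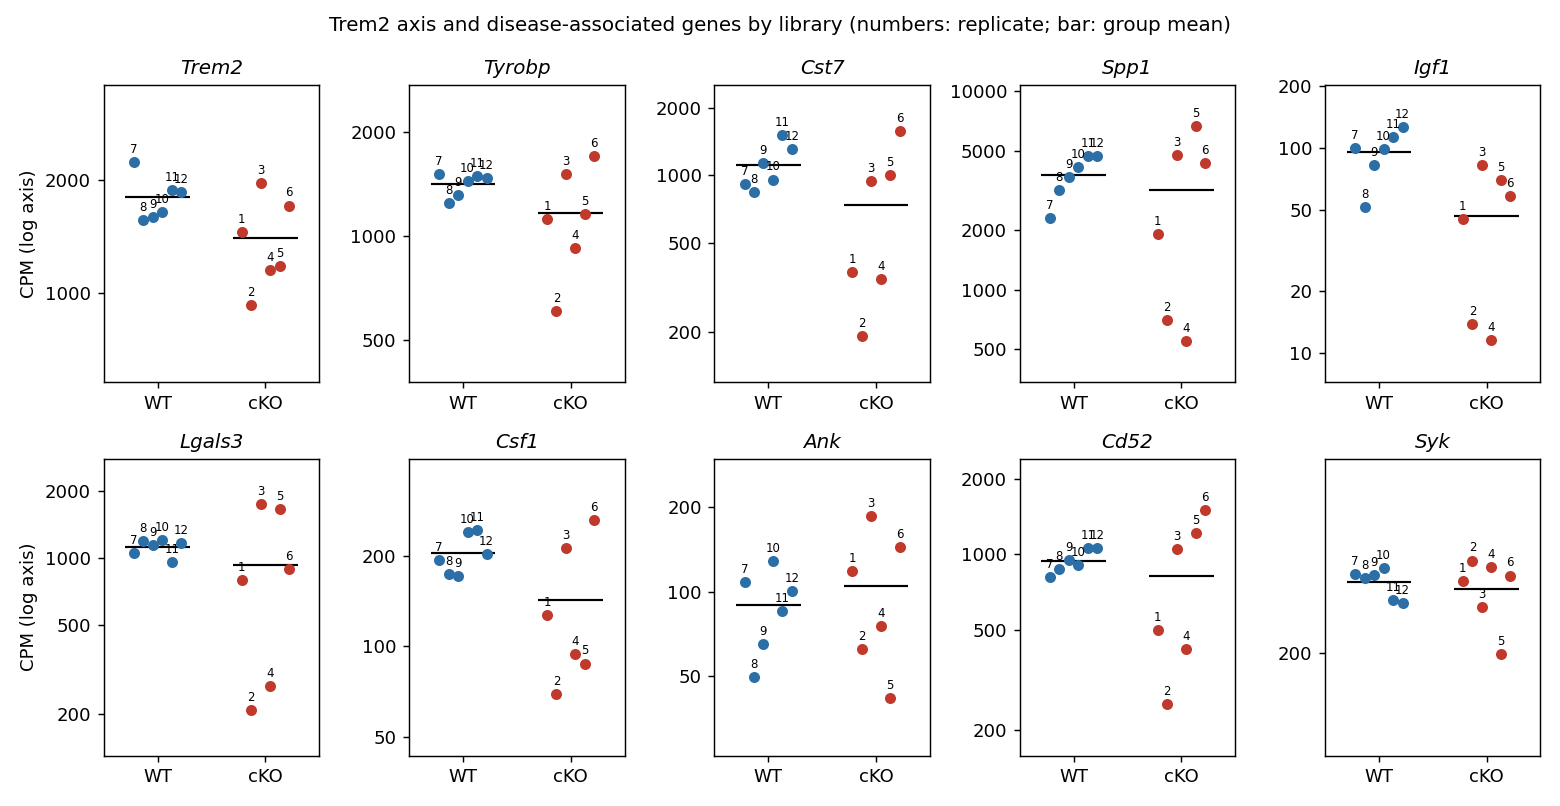
CPM of each of the 10 genes (log axis) in the 6 WT and 6 cKO libraries, with points numbered by replicate and bars at the group means. WT points lie close together, while cKO points run from far below the WT range (replicates 2 and 4) to its upper part or above it (replicates 3 and 6) for most genes.

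Trem2 (17: 48346401 to 48354147, mm10, plus strand), the receptor, had a lowest, median and highest level of 927, 1316 and 1966 CPM in cKO and of 1566, 1750 and 2237 CPM in WT. The 4 lowest of all 12 libraries were cKO 2, 4, 5 and 1, and cKO 3 and 6 stood among the WT levels. Its log2 fold change was -0.36 ± 0.18 (SE, n = 6 each; adjusted p = 0.229, edgeR), and it was below 0 in each of the 21 alternative settings (-0.49 to -0.14).

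Tyrobp (7: 30413760 to 30417585, plus strand), the adaptor, ran from 608 CPM over a median of 1136 to 1704 CPM in cKO and from 1244 over 1456 to 1513 CPM in WT. WT libraries were thus within 1.22-fold of each other and cKO libraries within 2.80-fold. The same 4 cKO libraries as for Trem2 lay below every WT library, cKO 6 lay above them all, and the log2 fold change was -0.27 ± 0.20 (adjusted p = 0.458, edgeR). The log2 level of Tyrobp minus that of Trem2, not scaled for length, was -0.29 ± 0.23 over the cKO libraries and -0.34 ± 0.13 over the WT libraries (SD of 6 each). In cKO 5 and cKO 6 that difference was -0.026 and -0.005, above the WT range of -0.564 to -0.183.

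Syk (13: 52583173 to 52648792, plus strand), the kinase recruited by TYROBP, was the steadiest member. It had a lowest, median and highest level of 200, 283 and 307 CPM in cKO and of 252, 286 and 297 CPM in WT. In cKO 2 and cKO 4, where most members were lowest, Syk stood at 307 and 298 CPM, just above every WT library, and it was lowest in cKO 5. Its log2 fold change was -0.04 ± 0.11 (adjusted p = 0.872, edgeR).

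Spp1 (5: 104435118 to 104441050, plus strand) encodes osteopontin, a secreted ligand of integrins and CD44. Its lowest, median and highest levels were 549.6, 3118 and 6675 CPM in cKO and 2292, 3910 and 4711 CPM in WT. The cKO libraries thus spanned 12.2-fold and the WT libraries 2.06-fold, with cKO 4, 2 and 1 below and cKO 5 and 3 above every WT library. The log2 fold change was -0.26 ± 0.51 (adjusted p = 0.817, edgeR). In the annotation, 309 exonic bases of Spp1 are shared with the transcript Gm42793 on the same strand, which is not analysed here.

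Igf1 (10: 87858265 to 87937042, plus strand), a secreted growth factor with roles in myelin formation, had the largest fitted difference of the 10. Its lowest, median and highest levels were 11.5, 51.4 and 82.4 CPM in cKO and 51.6, 99.1 and 126.8 CPM in WT. cKO 4, 2 and 1 lay below every WT library and the other cKO libraries lay within the WT range, none of them above its middle. The log2 fold change was -1.03 ± 0.42 (unadjusted p = 0.0288, adjusted p = 0.157, edgeR).

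Csf1 (3: 107741048 to 107760469, minus strand), a ligand of the receptor on which microglia depend for survival, ran from 69.1 CPM over a median of 110.6 to 263 CPM in cKO and from 172 over 198 to 243 CPM in WT. Here cKO 5 joined cKO 1, 2 and 4 below the WT range, and cKO 6 lay above it. The log2 fold change was -0.52 ± 0.29 (adjusted p = 0.297, edgeR).

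Lgals3 (14: 47367751 to 47386160, plus strand) encodes galectin-3, a sugar-binding protein of activated phagocytes that has been described as a ligand of TREM2. Its lowest, median and highest levels were 209, 847 and 1742 CPM in cKO and 960.5, 1159 and 1201 CPM in WT. No cKO library lay within the WT range, with cKO 2, 4, 1 and 6 below it and cKO 5 and 3 above it. The SD of log2 CPM was 1.30 in cKO and 0.13 in WT, a ratio of 10.3 and the highest of the members. Its log2 fold change was -0.27 ± 0.43 (adjusted p = 0.767, edgeR).

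Cst7 (2: 150570415 to 150578944, plus strand) encodes cystatin F, an inhibitor of lysosomal cathepsins. It stood at 192, 659 and 1580 CPM (lowest, median, highest) in cKO and at 845, 1048 and 1511 CPM in WT. Libraries cKO 2, 4 and 1 lay below every WT library (192, 344 and 370.1 CPM), cKO 3 and 5 within the WT range and cKO 6 above it. The log2 fold change was -0.59 ± 0.41 (adjusted p = 0.434, edgeR).

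Cd52 (4: 134082448 to 134095082, minus strand), a short glycopeptide on the surface of leukocytes, was again lowest in the libraries where Cst7 was lowest. It ran from 252 CPM over a median of 774 to 1506 CPM in cKO and from 815 over 929.5 to 1060 CPM in WT, with cKO 2, 4 and 1 below and cKO 5 and 6 above every WT library. Its log2 fold change was -0.20 ± 0.35 (adjusted p = 0.796, edgeR). Exons of Cd52 share 172 bases with Crybg2 on the other strand, which had at most 0.261 CPM.

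Ank (15: 27466677 to 27594909, plus strand), a membrane protein that exports pyrophosphate and ATP, was the 1 member with a positive log2 fold change (0.22 ± 0.33, adjusted p = 0.747, edgeR). Its lowest, median and highest levels were 41.8, 97.0 and 186 CPM in cKO and 49.9, 93.1 and 128 CPM in WT. It was lowest in cKO 5, below every WT library, and highest in cKO 3 and 6, above them all. Unlike most members, Ank in cKO 1, 2 and 4 stayed among the WT levels.

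**Figure D2:**
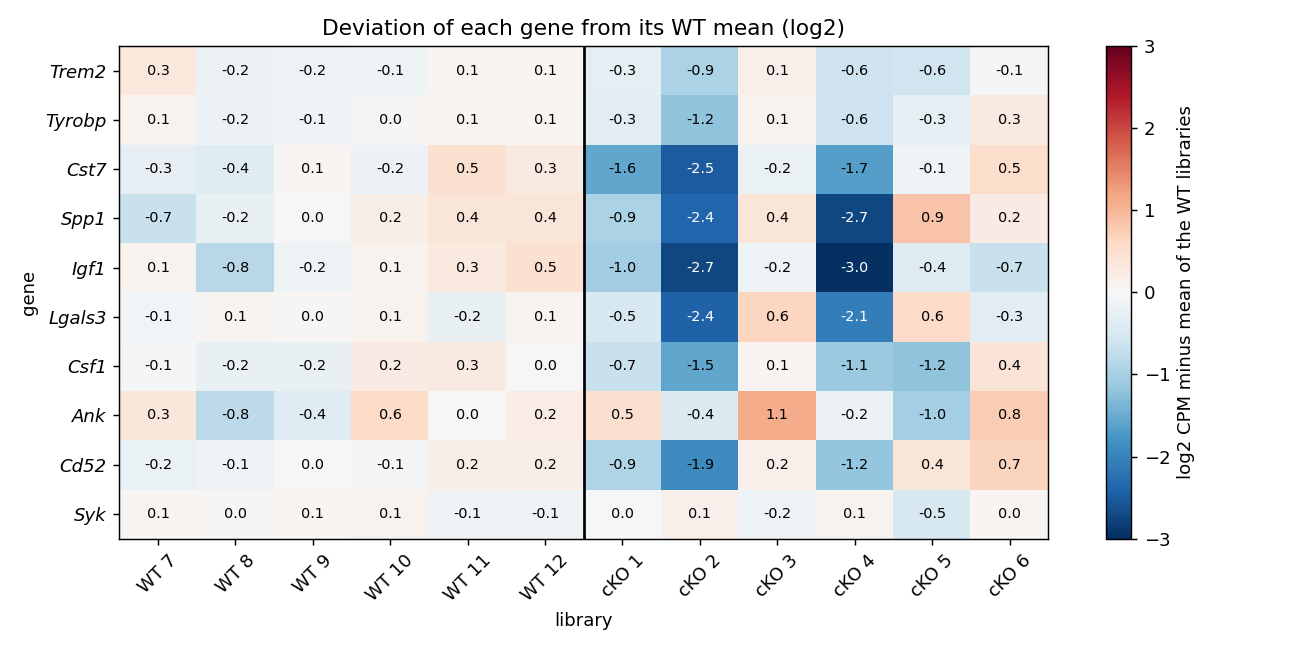
Log2 CPM of each gene (rows) in each library (columns) minus the mean of the WT libraries, with red for higher and blue for lower and the value in each cell. Igf1, Spp1, Cst7 and Lgals3 lie between -1.66 and -2.98 in cKO 2 and cKO 4, while Syk stays within 0.16 of the WT mean in all libraries except cKO 5 (-0.47).

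Among all tested genes the SD of log2 CPM was higher in cKO than in WT for 81.1%, with a median ratio of 1.67. For the members it was higher in 10 of 10, with ratios from 1.61 (Ank) to 10.3 (Lgals3) and a median of 3.52. The median SD of the members was 0.91 in cKO and 0.21 in WT, against 0.35 and 0.20 over all genes. These ratios are descriptions and were not tested.

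Relative to the WT mean, the median member stood, on the log2 scale, lowest in cKO 2 (-1.72), then in cKO 4 (-1.14), cKO 1 (-0.58) and cKO 5 (-0.34), above 0 in cKO 3 (0.12) and cKO 6 (0.26), and between -0.20 and 0.13 in the WT libraries. Genes of homeostatic microglia took a different course in those libraries. The mean log2 CPM of the 18 homeostatic genes was 9.32, 9.62 and 9.65 in cKO 1, 2 and 4, above every WT library (8.38 to 8.81). It was just above them in cKO 3 and 6 (8.82 and 8.93) and below them in cKO 5 (8.08). P2ry12, a nucleotide receptor of resting microglia, stood at 197, 228 and 232 CPM in cKO 1, 2 and 4 and at 32.1 to 108 CPM in WT. In the libraries with the least Cst7, Spp1 and Igf1, the summed homeostatic transcripts were at their highest level.

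Markers of some other cells moved with the same libraries. Summed ependymal markers were above every WT library in cKO 1, 2 and 4, and astrocyte markers in cKO 1, 2, 3, 4 and 5. Oligodendrocyte markers and endothelial and mural markers were so only in cKO 3, and Schwann cell markers in no cKO library. Neuron markers stood highest in cKO 1, 2 and 4. All 12 neuron markers were tested, of which 1 rose in edgeR (Uchl1), 5 by DESeq2 and 11 by limma-voom. All 12 log2 fold changes were above 0, and 11 of the 12 had an unadjusted p under 0.05 in edgeR. Their summed level was 669, 834 and 524 CPM in cKO 1, 2 and 4 and 347, 254 and 258 CPM in cKO 3, 5 and 6, against 222 to 336 CPM in WT. No neuron marker was at 0 in every library. The summed level of 8 monocyte markers was highest in cKO 5, 3 and 6 (1596, 1181 and 1178 CPM, against 228 to 695 CPM in WT), of which Fn1 alone, a matrix gene also made by other cells, gave 1582, 1178 and 1171 CPM. The defining monocyte genes Ccr2 and Chil3 were near 0 in every library (at most 0.670 and 0.597 CPM), and Ly6c2 was at most at 1.63 CPM (cKO 5). Of 4 tested monocyte markers and 2 tested neutrophil markers, 0 passed in edgeR or DESeq2 (0 and 1 at an unadjusted p under 0.05), the neutrophil gene Ly6g was at 0 in every library, and S100a8 reached 11.3 CPM in cKO 5 and at most 3.71 CPM in WT. Border macrophage markers summed to 16.2, 6.17 and 7.05 CPM in cKO 1, 2 and 4 and to 36.3, 23.2 and 23.4 CPM in cKO 3, 5 and 6, against 41.4 to 82.6 CPM in WT. Ms4a7 was the 1 of 4 tested markers of that list that fell. The part of these other cells in the members' levels was not tested beyond the following fits.

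**Figure D3:**
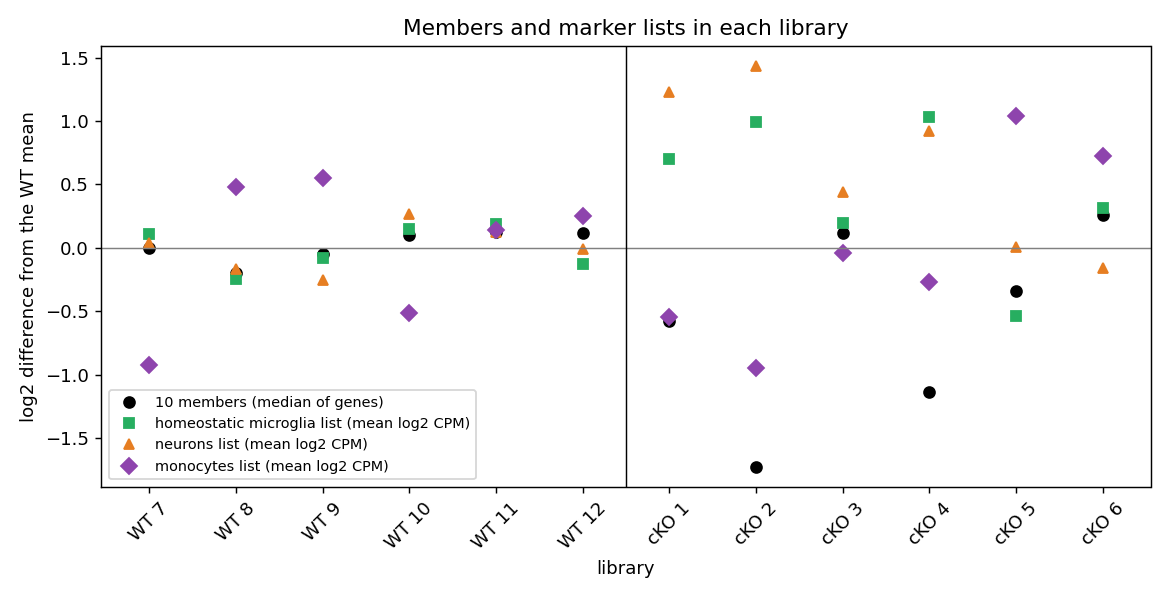
Difference from the WT mean (log2) in each library for the median of the 10 members (circles) and for the mean log2 CPM of the homeostatic microglia (squares), neuron (triangles) and monocyte (diamonds) lists. In cKO 1, 2 and 4 the members lie below 0 while the homeostatic and neuron lists lie above it.

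The first principal component of neuron, glia, Schwann, ependymal, endothelial and mural markers, called the CNS marker component here, was 1.62, 2.32 and 0.56 in cKO 1, 2 and 4 and below 0 in every other library. With it in the model, the median log2 fold change of the members was -0.10, and those of Spp1, Lgals3 and Cd52 became positive (0.11 ± 0.38, 0.08 ± 0.36 and 0.15 ± 0.16). Without cKO 1, 2 and 4 the median was 0.08, with Spp1 at 0.50 ± 0.22, Cd52 at 0.43 ± 0.13 and Lgals3 at 0.37 ± 0.18, and with Igf1 at -0.43 ± 0.23. Of the 10 members, 0 passed in either fit, in which 5.42% and 3.65% of all genes passed (smallest adjusted p of a member 0.350 and 0.109, edgeR; 0 and 2 members at an unadjusted p under 0.05). Without cKO 1, 2 and 4 the log2 fold changes of Tyrobp, Cst7, Spp1, Lgals3 and Cd52 were thus above 0. Those of Spp1, Lgals3 and Cd52 were so without cKO 1 and 2 alone (0.11, 0.022 and 0.15). The libraries left out are those in which the median member stood lowest. Leaving them out therefore had to raise most of these values, and the fit only describes how far. Limma-voom with sample weights, which gives libraries that stand apart less weight, called 5 members lower in cKO (Cst7, Spp1, Igf1, Csf1 and Cd52). In that fit 31.1% of all genes passed, and Spp1 stood at -1.22. The weight of each library is not given here. Those 5 calls therefore do not tell whether the differences hold with less weight on cKO 1, 2 and 4.

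**Figure D4:**
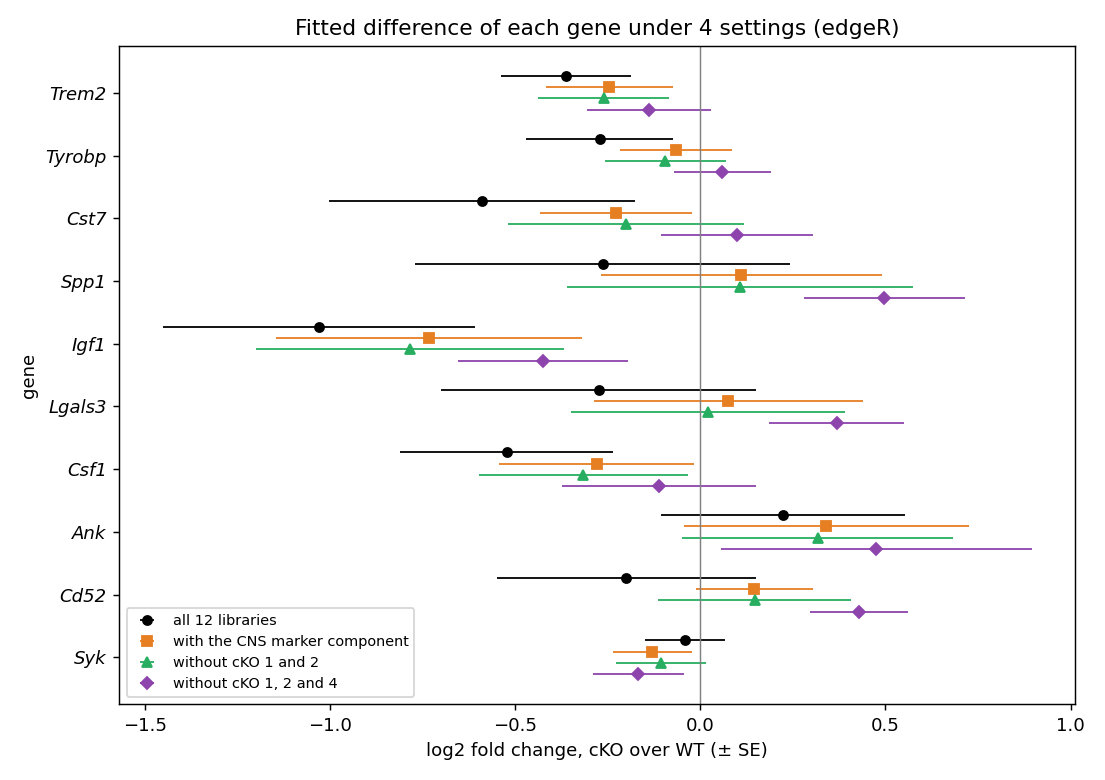
Log2 fold change of cKO over WT with its SE for each gene in edgeR, from all 12 libraries, with the component of CNS markers as a covariate, and without cKO 1 and 2 or cKO 1, 2 and 4. In each alternative the values are higher than from all libraries, except for Syk, which moves from -0.04 down to as low as -0.17.

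Levels between genes were compared as CPM per kilobase of annotated exon. In WT the order was Spp1 at 2294 ± 572, Tyrobp at 2116 ± 161, Cst7 at 1128 ± 262, Cd52 at 796 ± 83.2, Lgals3 at 603 ± 50.4 and Trem2 at 363 ± 51.5 CPM per kilobase (SD, n = 6). Far lower were Csf1 at 38.6 ± 5.92, Syk at 29.6 ± 1.99, Ank at 24.8 ± 7.96 and Igf1 at 9.62 ± 2.64 CPM per kilobase. The ranges of Spp1 and Tyrobp, of Cst7 and Cd52 and of Syk and Ank overlapped in WT, and those of the other neighbours did not. In cKO all neighbours overlapped except Trem2 with Ank and Csf1 with Igf1, and Csf1 fell behind Ank and Syk in the order (26.9 ± 14.8 against 29.0 ± 15.1 and 28.8 ± 4.26 CPM per kilobase). The adaptor message was thus 5.83-fold more abundant per kilobase of annotated exon than that of its receptor in WT. That ratio rests on union exon lengths of 667 bases for Tyrobp and 4946 bases for Trem2. In CPM, without scaling for length, Trem2 was the higher in WT (1797 ± 254.9 against 1411 ± 107.5 CPM, SD). Which annotated transcripts were present was not tested. The ratio and the place of Trem2 in the order therefore depend on those lengths.

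**Figure D5:**
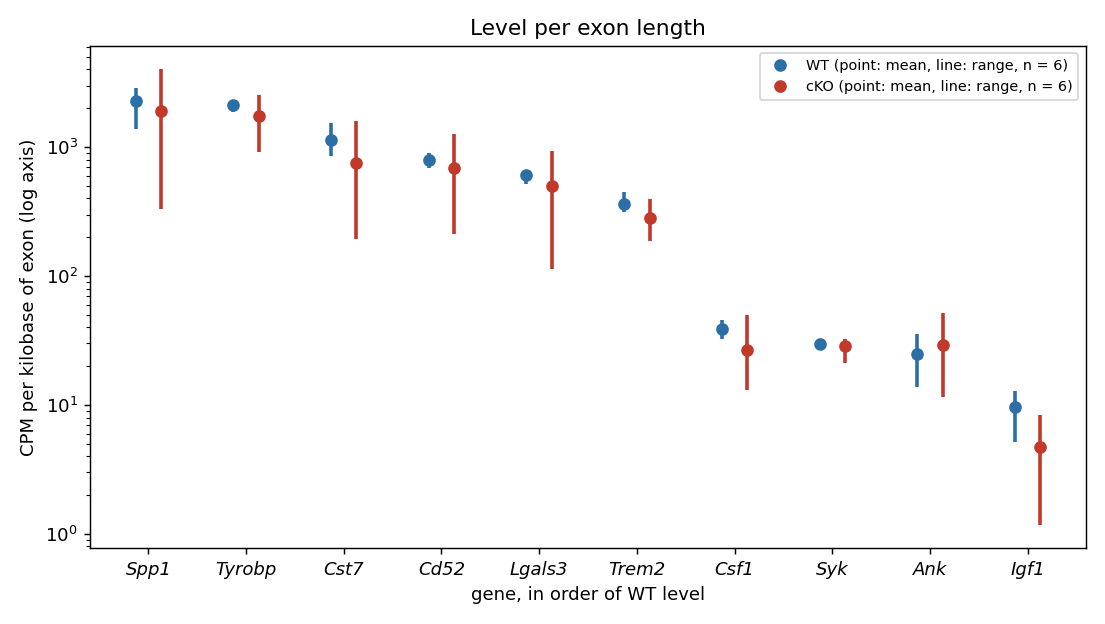
CPM per kilobase of exon (log axis) for each gene in WT and cKO, with points at the mean and lines over the range of the 6 libraries of each group. In every WT library the first 6 genes lie at 317 or more and the other 4 at 46.0 or less, and cKO ranges are wider.

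The genes whose log2 pattern over the 12 libraries came closest to that of Trem2 were Ly96, the TLR4 co-receptor MD-2 (root mean square difference 0.125), Sqstm1, an autophagy receptor (0.134), Ctsa, the lysosomal cathepsin A (0.137), Hs1bp3 (0.139) and Rdm1 (0.139). Tyrobp came 24th of 10272 genes compared (0.173), and the median gene lay at 0.42. The other members lay further from Trem2 by this measure, from Csf1 (0.341) and Syk (0.396) to Igf1 (0.810) and Spp1 (0.918). The measure counts the size of a difference as well as its direction. Relative to the WT mean (log2), Trem2 stood at -0.943 and -0.632 in cKO 2 and cKO 4. Igf1 stood at -2.73 and -2.98 in those libraries, and Syk at 0.149 and 0.104. Exons of Sqstm1, Ctsa and Hs1bp3 overlap genes on the other strand.

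Other adaptors and receptors of the axis changed in part. Of 4 adaptors with a tyrosine motif or a related one, 1 fell: Hcst (DAP10), which recruits phosphoinositide 3-kinase and lies next to Tyrobp on chromosome 7 (30417712 to 30419854, minus strand). It stood at 7.23 ± 2.50 CPM in cKO, against 13.3 ± 1.09 CPM in WT (SD of 6 libraries; log2 fold change -0.88 ± 0.21, adjusted p = 0.0251, edgeR), with every cKO library below every WT library. Hcst passed in 8 of the 12 fits without 1 library and was lost without cKO 4 or WT 9, 11 or 12, and also without cKO 1, 2 and 4 together (adjusted p = 0.0538). Fcer1g, the shared chain of Fc receptors, stood at 989 ± 362 CPM in cKO and 1366 ± 102 CPM in WT (-0.47 ± 0.19, adjusted p = 0.158).

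In the Trem family 2 of 6 genes were tested, Trem2 and Treml2, and Treml2, which lies near Trem2 on chromosome 17, fell by 1.24 ± 0.32 on the log2 scale (adjusted p = 0.0383, edgeR), from 99.1 ± 25.2 to 41.9 ± 28.9 CPM (SD). That call held in 1 of the 12 fits without 1 library (the one without cKO 5) and ended with the component of CNS markers as a covariate and without cKO 1, 2 and 4 (adjusted p = 0.0749 and 0.306). Of 7 tested receptors listed as partners of Tyrobp or like adaptors, 1 rose (Siglech, log2 fold change 1.72 ± 0.25) and 1 fell (Cd300c2, -0.43 ± 0.12, adjusted p = 0.0493, edgeR), where 2.44% and 3.43% of all genes rose and fell. Cd300c2 held in 3 of the 12 left-out fits, namely without cKO 3, 5 or 6, and Siglech passed in each of the 21 alternatives.

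Of 25 kinases, adaptors and lipid enzymes that work with SYK, 0 passed in edgeR (4 at an unadjusted p under 0.05, 2 by DESeq2), with a median log2 fold change of -0.09. The closest to the threshold were Lat2, a membrane adaptor (-0.61 ± 0.20, adjusted p = 0.0887), Prkcd, a protein kinase C (-0.39 ± 0.13, adjusted p = 0.0936), and Lyn, a Src-family kinase (0.27 ± 0.10, adjusted p = 0.108). Of 10 inhibitors of such signalling, 1 fell: Dok1, a docking protein that restrains Ras and ERK signalling, from 120.3 ± 17.0 to 70.4 ± 15.1 CPM (log2 fold change -0.77 ± 0.14, adjusted p = 0.00679, edgeR), with no overlap of the groups. Dok1 passed in each of the 12 fits without 1 library and was lost without cKO 1, 2 and 4 (-0.53 ± 0.14, adjusted p = 0.0623). Of 5 tested ligands and sheddases of TREM2, 0 passed in edgeR (1 at an unadjusted p under 0.05, 1 by DESeq2). That 1 gene was Apoe, a lipid carrier bound by TREM2, at -1.94 ± 0.55 (adjusted p = 0.0547), which passed without cKO 1, 2 and 4 (-1.37 ± 0.29, adjusted p = 0.0177, edgeR) and was lower in every cKO library than in every WT library.

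Disease-associated genes were split by their place in the signature. Of 7 genes of the first, Trem2-independent stage, 0 passed in edgeR (2 at an unadjusted p under 0.05, 1 by DESeq2), with a median log2 fold change of -0.36. Of 11 tested genes of the second, Trem2-dependent stage, 0 passed in edgeR or DESeq2 (2 at an unadjusted p under 0.05 in edgeR), with a median of -0.29, and Lilrb4a was not analysed here. In the third list, of 32 genes of the signature, 6 fell and 0 rose (median -0.39): Gpx3 (-4.59 ± 0.37), Apoc4 (-3.93 ± 0.61), Gpnmb (-2.88 ± 0.55), Apoc1 (-2.69 ± 0.60), Cd22 (-1.77 ± 0.35) and Cd68 (-0.93 ± 0.24), with adjusted p from 2.30e-05 to 0.0361 (edgeR). Earlier results of these samples were known when this list was written, so its count is not independent evidence of its direction. Of the 6, Gpx3, Apoc4, Gpnmb and Cd22 passed in each of the 21 alternatives, Apoc1 in 19 and Cd68 in 9. Cd68 was lost without cKO 1, 2 or 4 or any 1 WT library. In the homeostatic list of 18 genes, 4 rose and 0 fell in edgeR (median 0.60), where 2.44% and 3.43% of all genes rose and fell. DESeq2 called 6 higher and 1 lower, and limma-voom 13 higher and 1 lower. The 4 genes were Siglech, Olfml3 (0.61 ± 0.15, adjusted p = 0.0312), Selplg (0.87 ± 0.21, adjusted p = 0.0314) and Cst3, which encodes cystatin C, a secreted relative of cystatin F (15630 ± 4251 CPM in cKO, 9138 ± 1757 CPM in WT, log2 fold change 0.77 ± 0.20, adjusted p = 0.0376). Cst3 and Selplg held in 5 of the 12 left-out fits, and leaving out any 1 of cKO 1, 2 and 4 or of WT 8, 9, 11 and 12 ended both calls. Olfml3 passed in 4 and was lost without cKO 2 or 4 or any 1 WT library. Without cKO 1, 2 and 4 together, Siglech was the 1 of these 4 genes that passed (1.25 ± 0.21, adjusted p = 0.00635, edgeR).

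Partners of the secreted members were also read. Of 13 genes of the insulin-like growth factor axis, 1 fell: Igfbp4, a binding protein that holds IGFs back from their receptor, which stood at 17.9 ± 3.82 CPM in cKO and at 43.6 ± 5.70 CPM in WT (SD of 6 libraries; -1.28 ± 0.14, adjusted p = 0.000230, edgeR), with no overlap. Igfbp4 passed in each of the 21 alternatives and stood at -1.28 both with the marker component and without cKO 1, 2 and 4. Igf2 (-1.39 ± 0.48, adjusted p = 0.102) and the clearing receptor Igf2r (-0.71 ± 0.31, adjusted p = 0.178) did not pass. Of 7 tested genes of the CSF1 axis, 0 passed in edgeR (2 at an unadjusted p under 0.05, 1 by DESeq2), with Il34, the other ligand of the CSF1 receptor, at -0.91 ± 0.26 (adjusted p = 0.0583) and the receptor Csf1r at 0.46 ± 0.21 (adjusted p = 0.197). Of 8 osteopontin receptors, 0 passed in edgeR (2 at an unadjusted p under 0.05, 2 by DESeq2), with Itga9 at 1.45 ± 0.43 (adjusted p = 0.0623), Itga4 at -0.89 ± 0.29 (adjusted p = 0.0870) and Cd44 at -0.62 ± 0.32 (adjusted p = 0.266).

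Of 6 tested galectins and the galectin-3 binding protein, 1 fell, namely Lgals8, a galectin of damaged vesicles (-0.41 ± 0.11, adjusted p = 0.0378, edgeR), which held in 4 of the 12 left-out fits, namely without cKO 2, 4, 5 or 6, was lost with library totals as scaling (-0.20) and shares exonic bases with Heatr1 on the other strand. Of 12 tested cystatins, cathepsins and legumain, 1 rose (Cst3) and 0 fell, with Ctsb at -0.61 ± 0.22 (adjusted p = 0.117). In the list of 7 genes of phosphate and pyrophosphate handling to which Ank belongs, Enpp1, which makes pyrophosphate from ATP, fell by 0.56 ± 0.14 on the log2 scale (adjusted p = 0.0323), and the phosphate importer Slc20a1 rose by 0.44 ± 0.10 (adjusted p = 0.0194, edgeR). Enpp1 stood at 29.6 ± 4.05 CPM in WT and 20.1 ± 4.11 CPM in cKO, and was lost without cKO 1, 2 or 4 or WT 9, 10, 11 or 12 and with library totals as scaling. It was also lost with the marker component (adjusted p = 0.0678), without cKO 1 and 2 (adjusted p = 0.148) and without cKO 1, 2 and 4 (-0.34 ± 0.14, adjusted p = 0.234, edgeR). Slc20a1 stood at 24.0 ± 3.25 CPM in WT and 32.5 ± 2.05 CPM in cKO with no overlap, was lost without WT 9 or 11 and without cKO 1 and 2 or cKO 1, 2 and 4 (adjusted p = 0.0911 and 0.0715), and shares exonic bases with genes on the other strand.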

How the data were processed

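Read counts per gene were analysed for 12 libraries (6 cKO, 6 WT). The authors deposited 1 table of raw counts for 39017 Ensembl gene IDs, of which 37693 had a symbol in GENCODE M21 (mm10). Per the submitters' processing notes, bcl2fastq 2.17, FastQC, Trimmomatic and the build mm10 were used, and per the labels' protocols the kit was stranded. For the aligner, counting tool, strand setting and annotation, the sources used here name none.

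Genes were filtered with filterByExpr, scaled by TMM and tested by quasi-likelihood in edgeR 4.0.16 (robust, R 4.3.3), with Benjamini-Hochberg adjustment over 15015 genes and a threshold of 0.05. Each SE was taken from the fold change and its F statistic. Log2 CPM used a prior count of 2, and lengths are unions of annotated exons. Floors of 3 counts (0.109 to 0.157 CPM per library) cover counting error only. Alternatives were RLE scaling, library totals, DESeq2 1.42.0, limma 3.58.1 (voom with sample weights), no filter, a mean of at least 5 CPM, the CNS marker component, and libraries left out.

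Named genes were the members, Kdm6a, called list genes and otherwise the 4 of smallest p per list (a subset is printed), and the 5 genes nearest to Trem2. Single marker genes and motifs, and Ccl6, were singled out with values known. The members and lists were chosen with earlier results of these data known.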

Additional observations from a re-analysis of the deposited data

How the results depend on the processing

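Over all genes, 882 were called (367 higher, 515 lower in cKO), against 1882 with library totals (1542 higher, 340 lower), 1843 by DESeq2, 4663 by limma-voom with sample weights, 416 without cKO 1 and cKO 2, 557 without cKO 1, 2 and 4, and 460 to 2818 without 1 library (460 without WT 9, 2818 without cKO 5). The count of members called was 0 in every setting except limma-voom with sample weights (5), and 0 to 0 without 1 library. Library totals moved the median of all genes to 0.22, and relative to it the median member stood at -0.37. Values that changed sign, none of them called, were as follows. With the CNS marker component, Spp1 stood at 0.11, Lgals3 at 0.076 and Cd52 at 0.15. Without cKO 1 and cKO 2 they stood at 0.11, 0.022 and 0.15. Without cKO 1, 2 and 4, Tyrobp stood at 0.06, Cst7 at 0.10, Spp1 at 0.50, Lgals3 at 0.37 and Cd52 at 0.43. Syk stood at 0.17 with library totals and 0.035 with limma-voom. Without 1 library, Ank ran from -0.018 (without cKO 3) to 0.39 and Syk from -0.088 to 0.031 (without cKO 5). The median of the members was -0.11 without cKO 2, -0.15 without cKO 4, -0.45 without cKO 3 and -0.44 without cKO 6. The causes were not tested. With the longest transcript as length, Cd52 stood above Cst7 and Syk above Csf1 in the WT order. No paired analysis was possible because the groups share no replicate numbers. Depth limits low genes such as Kdm6a (36 to 130 counts).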

Other observations

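Ccl6, a chemokine of the second stage of the disease-associated signature, had a positive log2 fold change in a list where 9 of the 11 tested genes had a negative one. It stood at 422.5 ± 290.5 CPM in cKO and 208 ± 39.9 CPM in WT (SD of 6 libraries), and its log2 fold change was 1.02 ± 0.42, which did not pass (adjusted p = 0.160, edgeR). With the CNS marker component as a covariate it passed (1.35 ± 0.30, adjusted p = 0.0216), as it did without cKO 1, 2 and 4 (1.68 ± 0.19, adjusted p = 0.000395). In the other 19 alternatives it did not pass. Ccl6 was chosen after its values had been seen.

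In none of the 20 groups of 6 libraries (10 members in cKO and in WT) was a single library set apart by Dixon's criterion on log2 CPM.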
